A study of Mus musculus with 24 samples.

Results

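The genes described here encode the liver's machinery for glycolysis, gluconeogenesis and the use of pyruvate. They were chosen by symbol, as a list of enzymes of glycolysis, gluconeogenesis, fructose and pyruvate metabolism with the glucose transporters, the pyruvate carrier and the glucagon receptor. The list holds 33 of the 41388 genes in the files, each matched to 1 gene, and all 33 were among the 13052 genes with enough reads to be tested. Liver RNA of male C57BL/6J mice was sequenced in a 2 x 2 design. Adn-Lpin1-/- mice were homozygous for a floxed Lpin1 allele and carried a Cre recombinase driven by the adiponectin promoter, which is active in adipocytes, and the WT mice were littermates with the same floxed allele and no Cre. Mice of both genotypes ate a low-fat diet (LFD, 10% fat) or a high-fat diet (HFD, 60% fat) from 8 weeks of age. The labels give 16 weeks of feeding, whereas the methods of the study describe a shorter period, and the mice were fasted for 4 h before the livers were taken. The 4 groups, WT LFD, Adn-Lpin1-/- LFD, WT HFD and Adn-Lpin1-/- HFD, were each represented by 5 mice sequenced singly and 1 library of pooled RNA.

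Glycolysis splits glucose to pyruvate, which the mitochondria take up and either oxidise through pyruvate dehydrogenase or carboxylate to oxaloacetate. In the fasted state the liver runs the sequence the other way, from oxaloacetate through phosphoenolpyruvate to glucose 6-phosphate, and releases free glucose to the blood. Glucagon raises and insulin lowers transcription of the gluconeogenic genes Pck1 and G6pc, whereas carbohydrate feeding raises transcription of Pklr and Khk. Several steps are run by a liver isozyme beside a more widely expressed one, such as Slc2a2 beside Slc2a1.

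Single-mouse libraries held between 36260187 and 81072794 counts. The WT LFD libraries, at up to 45999456 counts, were all smaller than those of the other groups, so depth moved with this group and its part in the results was not tested. Hepatocyte markers fitted the tissue, with Alb between 55514 and 87678 CPM, read counts scaled to a common library size after correction by the trimmed mean of M values (TMM). The adipocyte hormone gene Adipoq was at 4.32 CPM or less. Another adipocyte marker, Cfd, reached 183 CPM, with group means from 0.831 CPM in WT LFD to 81.8 CPM in Adn-Lpin1-/- HFD mice. Since the deletion is in adipocytes, liver Lpin1 does not check the genotype labels. All CPM values below are on these scaled library sizes. In bulk tissue, fewer cells of a type and less RNA per cell cannot be told apart.

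Per unit of transcript length, these were abundant liver transcripts. The mean over the 20 mice, in the deposited RPKM, which divides reads by transcript length and library size, had a median of 75.6 RPKM over the 33 genes, against 3.77 RPKM over all genes tested, and 32 of the 33 lay above that level. Pck1, the cytosolic enzyme that makes phosphoenolpyruvate, had the highest level, 1112 ± 463 RPKM (SD, n = 20 mice). Fbp1, fructose-1,6-bisphosphatase, and Gapdh, the dehydrogenase in the middle of glycolysis, followed at 639 ± 81.3 and 632 ± 106 RPKM and did not differ beyond their spread. Khk, ketohexokinase, which traps fructose, came next at 379 ± 73.7 RPKM. At the low end were Dlat (9.08 ± 1.83 RPKM), Slc2a1 (4.39 ± 0.979 RPKM), Pfkfb3 (4.29 ± 1.67 RPKM), G6pc3 (4.10 ± 0.602 RPKM) and Pck2 (1.42 ± 0.303 RPKM), and the ranges of Slc2a1, Pfkfb3 and G6pc3 overlapped.

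**Figure D1:**
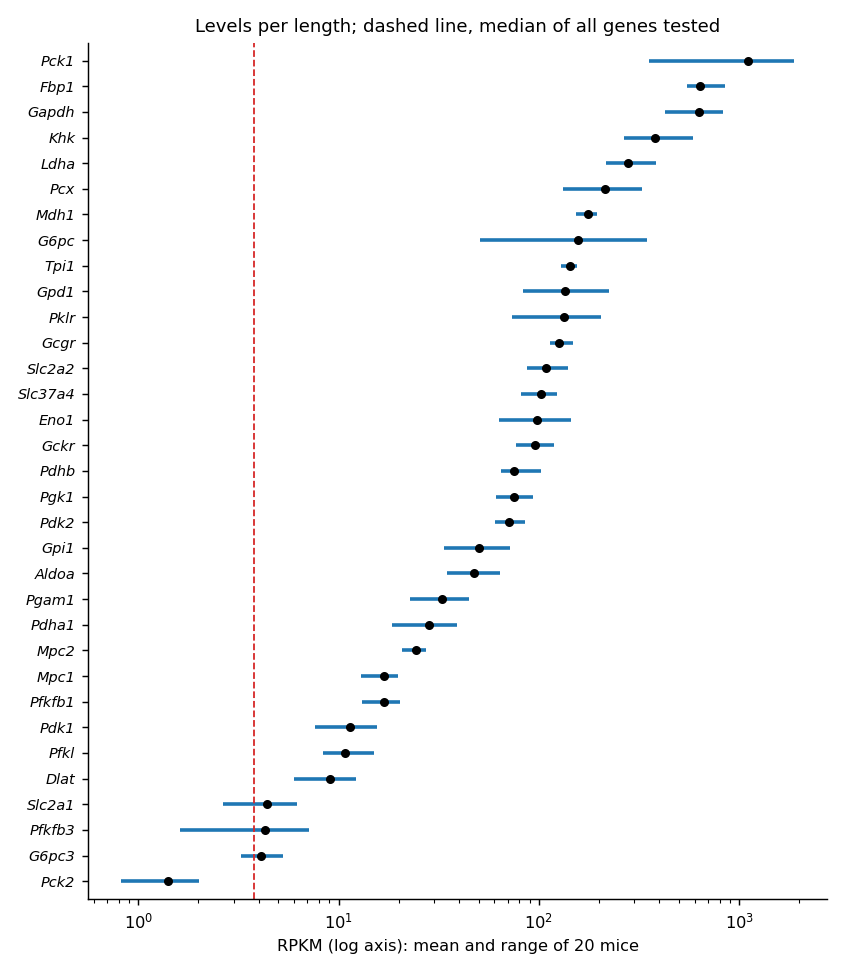
Levels of the 33 genes per length, as the mean (point) and the range (bar) of deposited RPKM over 20 mice, on a log axis. Pck1 is highest with a mean of 1112 RPKM and Pck2 lowest with 1.42 RPKM, and the dashed line marks the median of all genes tested, 3.77 RPKM.

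Isozymes or subunits typical of liver led their counterparts in every library. In ratios of RPKM within a mouse, Pck1 exceeded its mitochondrial counterpart Pck2 by between 383 and 1247 times, with a median of 803. The ratio of Slc2a2, the low-affinity liver transporter, to Slc2a1, the widely expressed one, lay between 16.3 and 43.0. The catalytic subunit G6pc exceeded the ubiquitous form G6pc3 by between 10.2 and 76.5 times. This ratio was between 48.8 and 76.5 in the Adn-Lpin1-/- LFD mice and between 10.2 and 35.0 in the Adn-Lpin1-/- HFD mice, without overlap. Pdk2 stood above Pdk1, both kinases that switch off pyruvate dehydrogenase, by between 4.85 and 9.65 times. Within complexes the ratios were smaller, between 1.05 and 1.84 for Mpc2 to Mpc1, the subunits of the mitochondrial pyruvate carrier, and between 0.229 and 0.513 for Pdha1 to Pdhb, the subunits of the first enzyme of pyruvate dehydrogenase.

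To ask how adipocyte lipin 1 loss and diet moved these genes in liver, genotypes were compared on each diet and diets within each genotype. Adjusted p values come from the quasi-likelihood test of edgeR, corrected by the Benjamini-Hochberg method over all genes tested, and a gene was called at 0.05 or less. On the LFD, 1 of the 33 genes was called by genotype, Slc2a2, which was lower in Adn-Lpin1-/- mice. Of all genes tested, 14.4% were called in this comparison and 8.11% were called lower. In a fit of only the groups compared, 2 of the 33 were called on the LFD, both higher (G6pc and Gpd1). That fit called 657 of the 13052 genes higher and 914 lower. On the HFD, 6 were called (18.2%), all higher in Adn-Lpin1-/- mice: Slc2a1, G6pc3, Gapdh, Gpi1, Gpd1 and Eno1. The share of all genes called was 18.6%, with 9.87% called higher, so the number called was close to that background. Which genes passed, and so whether all calls were higher, depended on the setting. With each library's trend with GC content removed, 1 was called higher (Slc2a1) and 1 lower (Slc37a4, -0.32, adjusted p = 0.0401, edgeR). Of the 13052 genes, 1033 were called higher and 987 lower there. Without Adn-Lpin1-/- HFD mouse 4, 8 were called higher and 2 lower (Slc37a4 and Mpc2), beside 1399 and 1351 of 13031 genes. Without Adn-Lpin1-/- LFD mouse 1 or WT HFD mouse 4 there were 5 higher and 1 lower (Mpc2). Over all genes these fits called 1247 higher and 1274 lower of 13028, and 1007 higher and 1107 lower of 13044. With the pools added, edgeR called 8 higher and 2 lower, beside 1864 and 1917 of 13136 genes. The median log2 fold change of the 33 genes was 0.08 on the LFD and 0.11 on the HFD, against 0.01 and 0.00 over all genes tested.

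For diet, WT mice gave no call among the 33 genes with edgeR, where 1.10% of all genes tested were called. At an unadjusted p under 0.05, 10 of the 33 passed, beside 15.8% of all genes. DESeq2's Wald test called 1 of the 33 and 3.06% of all genes, and voom with quality weights 5 of the 33 and 5.13% of all genes. The HFD value was below the LFD value for 25 of the 33, with a median log2 fold change of -0.14 against 0.00 over all genes. In Adn-Lpin1-/- mice 3 genes were called, Aldoa, Dlat and G6pc, all lower on the HFD. Of all genes tested, 2.46% were called there and 1.26% were called lower. Each group enters 2 of these comparisons, so the WT HFD mice, for instance, serve both the diet comparison in WT mice and the genotype comparison on the HFD.

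A difference in the effect of genotype between diets was called for none of the 33 genes, and for 0% of all genes tested, with edgeR. At an unadjusted p under 0.05 there were 5 of the 33, Slc2a1, G6pc, Dlat, Khk and Gapdh, and 938 of all genes (7.19%). DESeq2's Wald test called 30 and voom with quality weights 0 of all genes in this contrast, with 0 of the 33 in both. An effect called on 1 diet is therefore not shown to be particular to it.

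**Figure D2:**
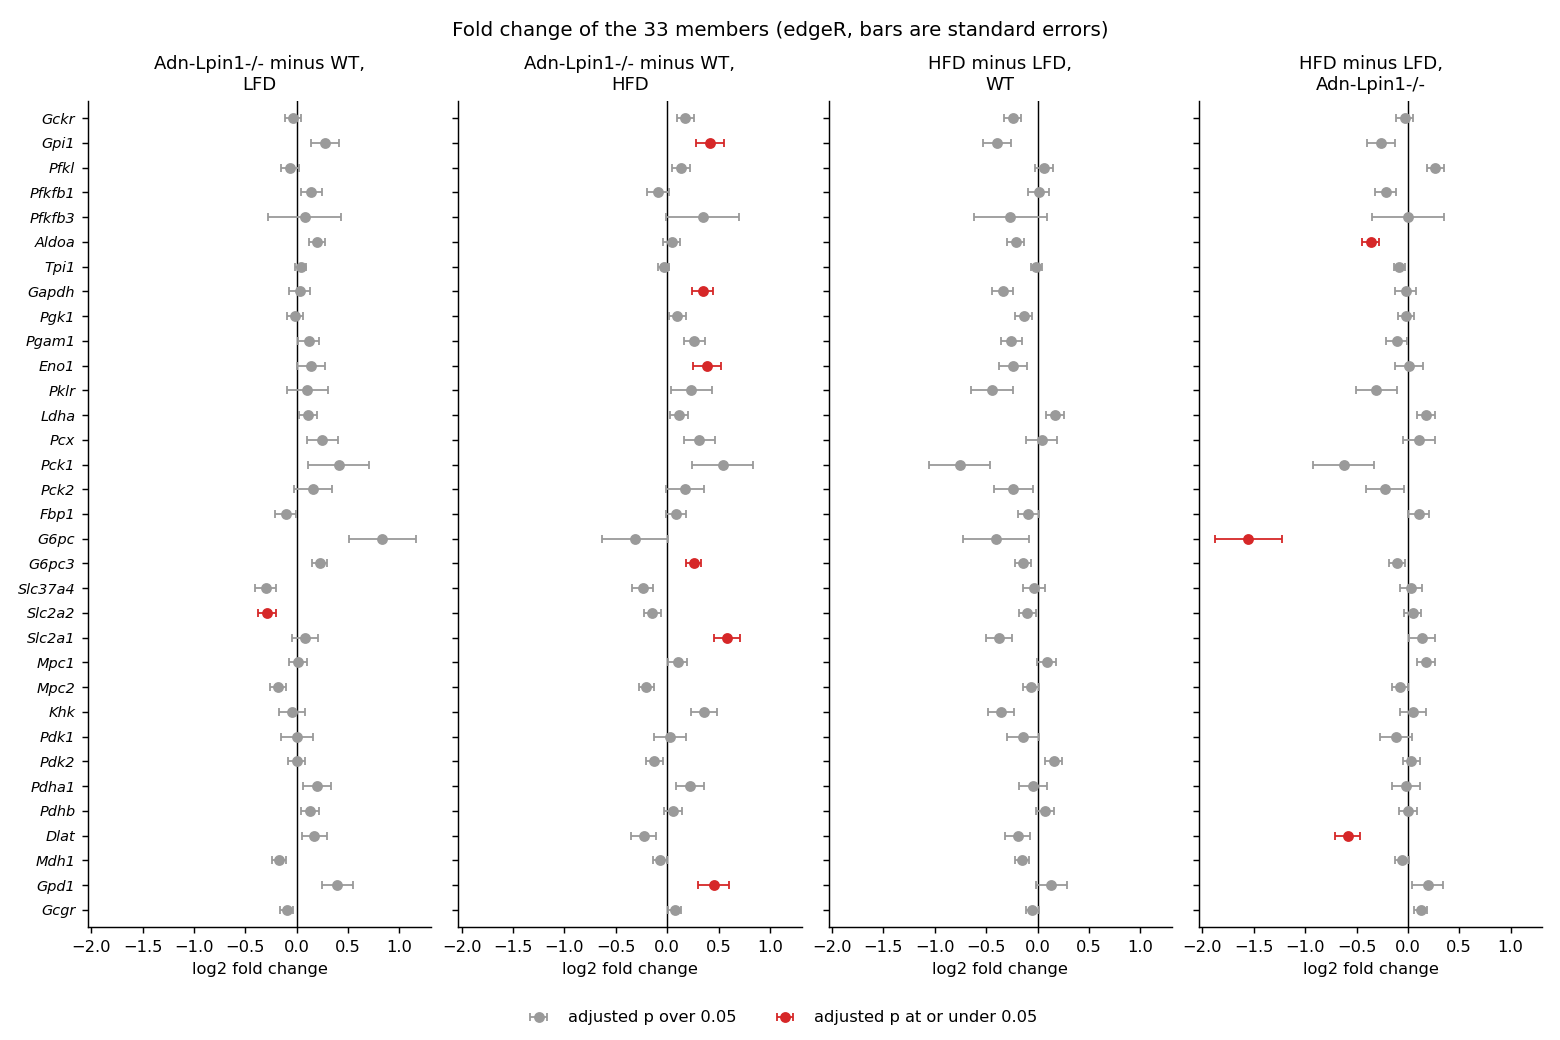
Log2 fold change with its standard error for each of the 33 genes in 4 comparisons, from 20 mice in 1 edgeR fit, with called genes in red. Called values are 1 in the first panel (Slc2a2), 6 in the second, 0 in the third and 3 in the fourth, where G6pc lies farthest from 0 at -1.55.

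By the simple criterion that no mouse of one group overlapped the other, 2 of the 33 separated by genotype on the LFD (Aldoa and G6pc) and 2 on the HFD (Slc2a1 and G6pc3), where 10.1% and 11.4% of all genes did. By diet, 2 separated in WT mice (Khk and Mdh1) and 3 in Adn-Lpin1-/- mice (Aldoa, Dlat and G6pc), against 3.73% and 4.06% of all genes.

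Glucose enters and leaves hepatocytes through Slc2a2 (GLUT2), a transporter of low affinity and high capacity encoded at chr3:28697903-28728356. Gene positions are given on GRCm38 from the Ensembl annotation. On the LFD, Slc2a2 was 295, 316, 322, 343 and 402 CPM in the WT mice and 267, 298, 235, 280.0 and 294 CPM in the Adn-Lpin1-/- mice. On the HFD, Slc2a2 was 305, 317, 306, 344 and 293 CPM in the WT mice and 323, 262, 284, 287 and 262 CPM in the Adn-Lpin1-/- mice. On the LFD, 4 of the 5 Adn-Lpin1-/- mice were below every WT mouse and the groups met only at the lowest WT mouse. The log2 fold change was -0.29 ± 0.09 (SE; adjusted p = 0.0287, edgeR), a fall to 0.819 times the WT level. On the HFD it was -0.14 ± 0.09 (adjusted p = 0.253, edgeR), and the 2 effects were not shown to differ (0.14 ± 0.12, adjusted p = 0.849). The LFD call held in 7 of 10 other settings. It was lost when each library's trend with GC content was removed (adjusted p = 0.122, edgeR). The same held without a limit on low counts (0.0621) and in a fit of only the groups compared (0.0675). It was also lost without WT LFD mouse 4 or 5 or Adn-Lpin1-/- LFD mouse 3, at adjusted p values of 0.0549, 0.0698 and 0.0761. In the same comparison the 6 hepatocyte markers summed to between 104837 and 110973 CPM in WT LFD mice and between 75314 and 100859 CPM in Adn-Lpin1-/- LFD mice. That sum was mostly Alb, with means of 78714 and 67484 CPM, whereas Ttr had means of 7304 and 7498 CPM and Tat of 1183 and 1713 CPM. None of the 6 was called by edgeR or by DESeq2's Wald test, 2 were under an unadjusted p of 0.05 in edgeR, and voom with quality weights called 1. Of 6 stellate and 6 sinusoidal endothelial markers, 2 each were called higher in Adn-Lpin1-/- LFD mice. The part of these cells in the Slc2a2 result was not tested.

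Slc2a1 (GLUT1), the transporter of most other cell types, at chr4:119108711-119137330, had the lowest adjusted p of the 33 genes by genotype on the HFD. On the LFD, Slc2a1 was 12.6, 11.3, 12.8, 16.3 and 9.69 CPM in the WT mice and 15.1, 13.3, 14.9, 12.2 and 10.9 CPM in the Adn-Lpin1-/- mice. On the HFD, Slc2a1 was 10.1, 11.3, 7.80, 10.1 and 9.16 CPM in the WT mice and 15.5, 16.4, 13.1, 14.6 and 13.1 CPM in the Adn-Lpin1-/- mice. The LFD groups overlapped, whereas on the HFD all 5 Adn-Lpin1-/- mice were above all 5 WT mice. Slc2a1 was 1.50 times as high in Adn-Lpin1-/- HFD mice as in WT HFD mice, a log2 fold change of 0.59 ± 0.13 (SE; adjusted p = 0.0041, edgeR). Without overlap, a two-sided exact permutation test of the single-mouse values must give the smallest p that 5 mice against 5 allow, 0.00794. It therefore adds nothing to the lack of overlap, which 11.4% of all genes showed in this comparison. The call held in all 10 other settings and without any 1 mouse. On the LFD the log2 fold change was 0.08 ± 0.13 (adjusted p = 0.71, edgeR), and the difference between the diets, 0.50 ± 0.18, had an unadjusted p of 0.0105 and an adjusted p of 0.581.

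Markers of other liver cell types moved in the same comparison as Slc2a1. Of 7 Kupffer cell and macrophage markers, 5 were called higher in Adn-Lpin1-/- HFD mice, and their summed level was 103 to 128 CPM in WT HFD and 137 to 303 CPM in Adn-Lpin1-/- HFD mice, without overlap. The 6 markers of sinusoidal endothelium summed to 82.2 to 122 and to 126 to 144 CPM, with 3 called higher. The 6 stellate cell markers summed to 59.7 to 98.3 and to 68.3 to 180 CPM, with 2 called higher and 1 lower. Of the 6 hepatocyte markers 3 were called lower, and their sum ran from 93771 to 121313 CPM in WT HFD and from 78637 to 105240 CPM in Adn-Lpin1-/- HFD mice. Of 5 adipocyte markers only Cfd had enough reads to be tested and was called higher. Its means were 5.83 CPM in WT HFD and 81.8 CPM in Adn-Lpin1-/- HFD mice. The others were near 0, with means in the same order of 0.189 and 0.0270 CPM for Adipoq and 0.0261 and 0.00960 CPM for Lep. Retn had means of 0.0231 and 0.0205 CPM and Plin1 of 0.0146 and 0.0178 CPM. None of the markers in these 5 lists was at 0 in all libraries, and the part of these cells in the Slc2a1 result was not tested.

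The bases upstream of the Slc2a1 gene are shown because this was the steadiest genotype call. They are those of the 250 bases before the RefSeq start that lie outside the annotated gene, on build GRCm38.p6, written 5′ to 3′ with any match to 4 searched motifs in capitals. The motifs were TGACG, the core of a cAMP response element, CACGTG, an E-box, TGTTTAC, a forkhead core, and GGGCGG, a GC box, each on both strands. Slc2a1 has GC boxes, read as CCGCCC, 45 and 20 bases before the start, and the second lies within the annotated gene and is not shown.
Slc2a1, chr4:119108495-119108710 (+ strand): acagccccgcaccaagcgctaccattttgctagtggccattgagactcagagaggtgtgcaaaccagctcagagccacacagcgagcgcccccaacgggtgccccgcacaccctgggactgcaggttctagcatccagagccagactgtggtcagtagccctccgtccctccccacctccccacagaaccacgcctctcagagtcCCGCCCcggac

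Gckr (chr5:31297581-31327300), a nuclear protein that restrains the phosphorylation of glucose in hepatocytes, ranged only from 158 to 228 CPM over the 20 mice. On the LFD, Gckr was 201, 218, 189, 202 and 216 CPM in the WT mice and 212, 202, 198, 180.5 and 206 CPM in the Adn-Lpin1-/- mice. On the HFD, Gckr was 191, 168, 158, 171 and 178 CPM in the WT mice and 197, 172, 228, 218 and 163 CPM in the Adn-Lpin1-/- mice. The WT HFD mice had the lowest mean, with 4 of the 5 below every WT LFD mouse. No comparison was called by edgeR, and the diet effect in WT mice was -0.24 ± 0.08 (SE; adjusted p = 0.158, edgeR). Voom with quality weights called that diet effect (-0.25, adjusted p = 0.0471). The genotype effect on the HFD was 0.18 ± 0.08 (adjusted p = 0.142, edgeR) and passed without Adn-Lpin1-/- HFD mouse 5 (0.0442).

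**Figure D3:**
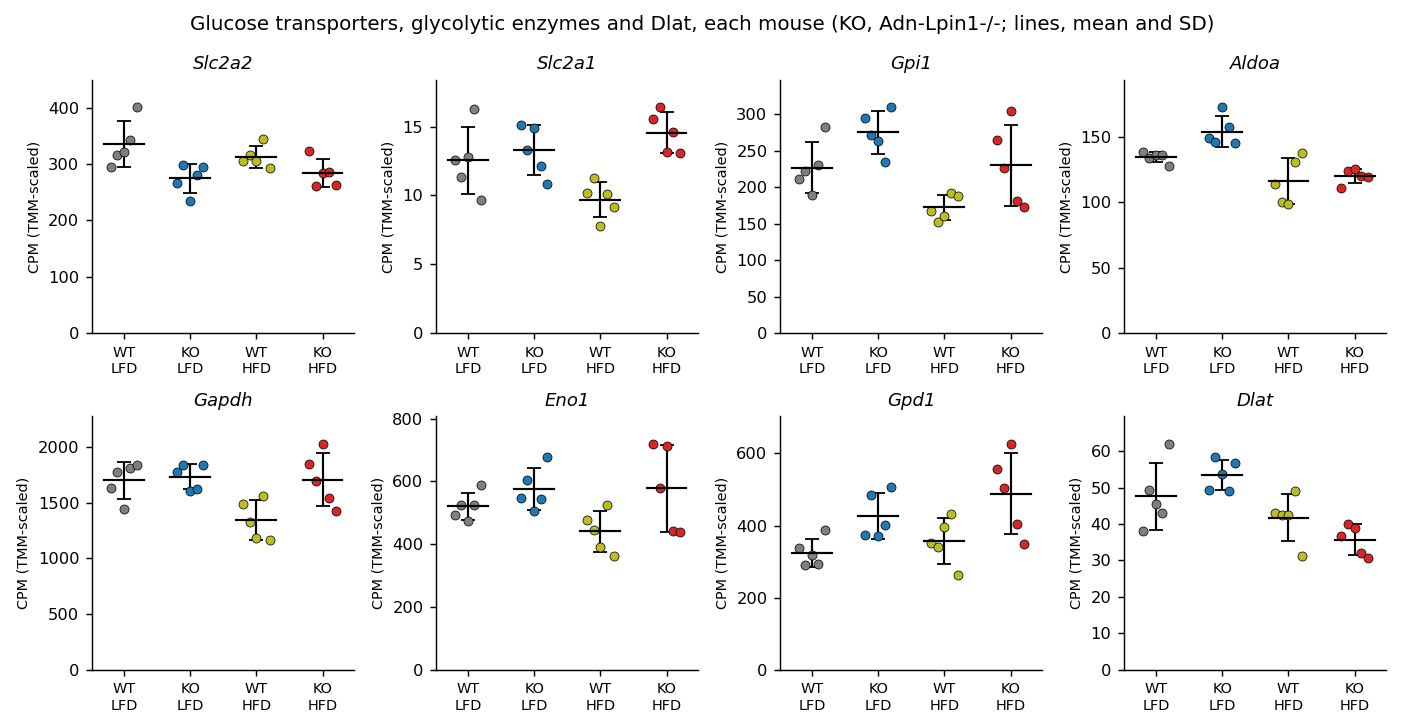
CPM on TMM-scaled library sizes of 8 genes in each of the 20 mice (points), with the mean and SD of each group (lines); KO stands for Adn-Lpin1-/-. For Slc2a1 all 5 Adn-Lpin1-/- HFD mice, from 13.1 to 16.4 CPM, lie above all WT HFD mice, from 7.80 to 11.3 CPM.

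Among the enzymes between glucose 6-phosphate and pyruvate, Gpi1, Gapdh and Eno1 were higher in Adn-Lpin1-/- mice on the HFD and Aldoa was lower on the HFD in Adn-Lpin1-/- mice. Gpi1, glucose-6-phosphate isomerase (chr7:34202122-34230289), works in both directions of the pathway. On the LFD, Gpi1 was 211, 222, 189, 229.8 and 283 CPM in the WT mice and 295, 272, 264, 235 and 310.1 CPM in the Adn-Lpin1-/- mice. On the HFD, Gpi1 was 167, 152, 161, 192 and 188 CPM in the WT mice and 264, 226, 305, 182 and 173 CPM in the Adn-Lpin1-/- mice. On the HFD 3 of the 5 Adn-Lpin1-/- mice were above every WT mouse and the other 2 lay within the WT range. The log2 fold change was 0.42 ± 0.14 (SE; adjusted p = 0.0378, edgeR), and on the LFD it was 0.28 ± 0.14 (adjusted p = 0.18). The call held in 5 of 10 other settings and in 12 of the 20 fits that left out 1 mouse. It was lost without WT LFD mouse 4, WT HFD mouse 1, 2, 3 or 5 or Adn-Lpin1-/- HFD mouse 1, 2 or 3, at adjusted p values between 0.0503 and 0.12 (edgeR), and at 0.0896 with the GC trend removed.

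Gapdh (chr6:125161853-125166467), which couples oxidation of glyceraldehyde 3-phosphate to NADH, had the same order of group means as Gpi1. On the LFD, Gapdh was 1633, 1773, 1447, 1809 and 1841 CPM in the WT mice and 1773, 1836, 1604, 1621 and 1843 CPM in the Adn-Lpin1-/- mice. On the HFD, Gapdh was 1493, 1323, 1186, 1564 and 1162 CPM in the WT mice and 1845, 1700.0, 2033, 1544 and 1424 CPM in the Adn-Lpin1-/- mice. The WT HFD mice had the lowest mean, and 3 of the Adn-Lpin1-/- HFD mice were above all of them. The log2 fold change on the HFD was 0.34 ± 0.10 (SE; adjusted p = 0.0257, edgeR), against 0.03 ± 0.10 on the LFD (adjusted p = 0.887). For diet in WT mice it was -0.34 ± 0.10, which did not pass (adjusted p = 0.114, edgeR). That diet effect passed with DESeq2's Wald test (adjusted p = 0.0470) and voom with quality weights (0.0475). With the pools it passed in edgeR (0.0398) and in voom (0.0127). The HFD genotype call held in 7 of 10 other settings. It was lost without WT HFD mouse 2, 3 or 5 or Adn-Lpin1-/- HFD mouse 1, 2 or 3, at adjusted p values between 0.05003 and 0.0791 (edgeR), and at 0.094 with the GC trend removed.

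Eno1, enolase (chr4:150236721-150248879), which makes phosphoenolpyruvate, was called only just. On the LFD, Eno1 was 492, 524, 474, 523 and 589 CPM in the WT mice and 546, 604, 504, 543 and 676 CPM in the Adn-Lpin1-/- mice. On the HFD, Eno1 was 477, 446, 392, 526 and 363 CPM in the WT mice and 720.4, 579, 713, 441 and 438 CPM in the Adn-Lpin1-/- mice. The 5 Adn-Lpin1-/- HFD mice were split, with mice 1, 2 and 3 above the WT HFD range and mice 4 and 5 inside it. The log2 fold change was 0.39 ± 0.14 (SE; adjusted p = 0.0498, edgeR), and the call held in 3 of 10 other settings. With 1 mouse left out it held only without Adn-Lpin1-/- LFD mouse 5, WT HFD mouse 4 or Adn-Lpin1-/- HFD mouse 4 or 5, and in the other fits the adjusted p lay between 0.053 and 0.144 (edgeR). Glycolytic genes such as Gapdh, Eno1 and Aldoa are known to have processed copies in the genome, and the effect of such copies on the counts was not tested.

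Aldoa (chr7:126795234-126800751), the aldolase of muscle and most tissues, separated by diet in Adn-Lpin1-/- mice. On the LFD, Aldoa was 139, 134, 136, 136 and 128 CPM in the WT mice and 149, 146, 173, 157 and 145 CPM in the Adn-Lpin1-/- mice. On the HFD, Aldoa was 114, 100.1, 98.9, 130.3 and 138 CPM in the WT mice and 111, 123, 125, 119.7 and 119.5 CPM in the Adn-Lpin1-/- mice. All 5 Adn-Lpin1-/- LFD mice were above the WT LFD mice and above every Adn-Lpin1-/- HFD mouse. The diet effect in Adn-Lpin1-/- mice was -0.36 ± 0.08 on the log2 scale (SE; adjusted p = 0.0215, edgeR), a fall to 0.778 times the LFD level. It held in all 10 other settings and was lost without Adn-Lpin1-/- LFD mouse 3 or 4 or Adn-Lpin1-/- HFD mouse 1, at adjusted p values of 0.0724, 0.0513 and 0.0573. In WT mice the diet effect was -0.21 ± 0.08 (adjusted p = 0.202, edgeR), and the genotype effect on the LFD 0.20 ± 0.08 (adjusted p = 0.11). Voom with quality weights called that diet effect without the pools (-0.27, adjusted p = 0.0368) and with them (0.00195). The LFD genotype effect passed with the pools in edgeR (0.0385) and in voom (0.0109).

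Pklr, liver pyruvate kinase (chr3:89136142-89146784), which closes glycolysis, was called by edgeR in no comparison. On the LFD, Pklr was 363, 554, 380.1, 484 and 587 CPM in the WT mice and 592, 502, 401, 413 and 633 CPM in the Adn-Lpin1-/- mice. On the HFD, Pklr was 309, 343, 368, 368 and 354 CPM in the WT mice and 555, 348, 580.5, 241 and 327 CPM in the Adn-Lpin1-/- mice. The WT HFD mice lay close together and low, 3 of them below every WT LFD mouse, while the Adn-Lpin1-/- HFD mice held both the lowest value on the HFD and the highest. The largest effect was that of diet in WT mice, -0.44 ± 0.20 (SE; adjusted p = 0.286, edgeR).

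Pfkfb3 (chr2:11471430-11502101), one of the bifunctional enzymes that set fructose 2,6-bisphosphate, the activator of phosphofructokinase, was the most variable of the 33 within groups. On the LFD, Pfkfb3 was 23.2, 20.6, 46.0, 51.1 and 12.7 CPM in the WT mice and 27.9, 32.5, 30.9, 47.1 and 23.7 CPM in the Adn-Lpin1-/- mice. On the HFD, Pfkfb3 was 11.8, 19.04, 29.9, 47.9 and 19.1 CPM in the WT mice and 22.9, 27.7, 47.4, 32.2 and 32.1 CPM in the Adn-Lpin1-/- mice. Each group spanned high and low mice and all groups overlapped. Log2 fold changes lay between -0.26 and 0.35 with standard errors of 0.35 to 0.36.

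The remaining glycolytic genes were called in no comparison. Pfkl, liver phosphofructokinase, had group means of 43.5 to 52.4 CPM, and its largest log2 fold change was 0.27 for diet in Adn-Lpin1-/- mice (adjusted p = 0.112, edgeR). Pfkfb1, the liver form of the bifunctional enzyme, had group means of 63.3 to 73.7 CPM. Tpi1, triosephosphate isomerase, had the smallest spread of all, with every mouse between 296 and 349 CPM and no log2 fold change beyond 0.08 in size in the 4 comparisons. Pgk1, phosphoglycerate kinase, had means of 158 to 174 CPM. Pgam1, phosphoglycerate mutase, reached a log2 fold change of 0.26 by genotype on the HFD (adjusted p = 0.0761, edgeR), which passed without Adn-Lpin1-/- HFD mouse 4 or 5 (0.0374 and 0.0449).

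Gpd1, cytosolic glycerol-3-phosphate dehydrogenase (chr15:99717515-99725005), links glycolysis to glycerol and shuttles electrons from NADH. On the LFD, Gpd1 was 337, 289.7, 317, 294 and 386 CPM in the WT mice and 375, 484, 370.0, 401 and 506 CPM in the Adn-Lpin1-/- mice. On the HFD, Gpd1 was 353, 340.4, 395, 433 and 262 CPM in the WT mice and 557, 503, 627, 404 and 349 CPM in the Adn-Lpin1-/- mice. On either diet 3 of the 5 Adn-Lpin1-/- mice were above every WT mouse and 2 were not. The log2 fold change was 0.45 ± 0.15 on the HFD (SE; adjusted p = 0.0409, edgeR) and 0.39 ± 0.15 on the LFD, where it did not pass (adjusted p = 0.0838). The HFD call held in 4 of 10 other settings. It was lost without WT LFD mouse 1, 3 or 4, WT HFD mouse 1, 2, 3 or 5 or Adn-Lpin1-/- HFD mouse 1, 2 or 3, at adjusted p values between 0.051 and 0.12 (edgeR). Mdh1, cytosolic malate dehydrogenase of the malate shuttle, had means of 427 to 499 CPM and no call, although its genotype effect on the LFD passed without Adn-Lpin1-/- LFD mouse 1 (adjusted p = 0.0291, edgeR). Voom with quality weights called the LFD genotype effects of Mdh1 (adjusted p = 0.0386) and of Gpd1 (0.0366).

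Khk, the first enzyme of fructose use (chr5:30921556-30931246), fell short of the threshold with edgeR. On the LFD, Khk was 612, 649, 641, 738 and 745 CPM in the WT mice and 753, 591, 604, 611 and 712 CPM in the Adn-Lpin1-/- mice. On the HFD, Khk was 579, 521, 472, 595 and 475 CPM in the WT mice and 718, 616, 938, 599 and 511 CPM in the Adn-Lpin1-/- mice. All 5 WT HFD mice were below all 5 WT LFD mice, and 4 of the 5 Adn-Lpin1-/- HFD mice were above every WT HFD mouse. The genotype effect on the HFD was 0.36 ± 0.13 (SE; adjusted p = 0.0549, edgeR), and the diet effect in WT mice was -0.36 ± 0.13 (adjusted p = 0.174). The genotype effect passed without Adn-Lpin1-/- HFD mouse 4 or 5 (adjusted p = 0.0478 and 0.0178, edgeR). It also passed with DESeq2's Wald test (0.0336) and, with the pools, in edgeR (0.0231) and voom (0.0101). Voom with the pools also called the diet effect in WT mice (0.00448).

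Of the genes that handle pyruvate, 1 of 9 was called in any of the 4 comparisons of genotype and diet, beside 26.9% of all genes tested. This was Dlat, the acetyltransferase core of pyruvate dehydrogenase (chr9:50634633-50659780). On the LFD, Dlat was 38.0, 49.4, 45.5, 42.9 and 62.1 CPM in the WT mice and 49.4, 58.5, 53.8, 49.2 and 56.7 CPM in the Adn-Lpin1-/- mice. On the HFD, Dlat was 43.1, 42.6, 42.6, 49.1 and 31.2 CPM in the WT mice and 36.7, 40.0, 39.0, 31.9 and 30.6 CPM in the Adn-Lpin1-/- mice. All 5 Adn-Lpin1-/- HFD mice were below all 5 Adn-Lpin1-/- LFD mice, while the WT groups overlapped. The diet effect in Adn-Lpin1-/- mice was -0.59 ± 0.12 (SE; adjusted p = 0.0151, edgeR), a fall to 0.667 times the LFD level, and it held in all 10 other settings and without any 1 mouse. In WT mice it was -0.19 ± 0.12 (adjusted p = 0.472, edgeR), and the HFD genotype effect minus that on the LFD was -0.39 ± 0.17 (unadjusted p = 0.0329, adjusted p = 0.66).

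The other 8 pyruvate genes gave no call. Pdha1 and Pdhb, which form the first enzyme of the same complex as Dlat, had diet effects of -0.02 and 0.00 in Adn-Lpin1-/- mice (adjusted p = 0.961 and 0.998, edgeR). The inhibitory kinases Pdk1 and Pdk2 had log2 fold changes between -0.14 and 0.16 over the 4 comparisons. Mpc1 and Mpc2 ranged from 27.9 to 41.7 and from 73.0 to 112 CPM over the 20 mice, and the genotype effect on Mpc2 was -0.19 on the LFD and -0.20 on the HFD (adjusted p = 0.109 and 0.0674, edgeR). Ldha, which interconverts pyruvate and lactate, had means of 750.3 to 915 CPM and log2 fold changes of 0.11 to 0.18, all without a call. Pcx, pyruvate carboxylase, the entry to gluconeogenesis, had log2 fold changes of 0.25 and 0.31 by genotype (adjusted p = 0.295 and 0.156, edgeR). On the HFD the value of Mpc2 passed without Adn-Lpin1-/- LFD mouse 1, WT HFD mouse 4 or Adn-Lpin1-/- HFD mouse 4 (adjusted p = 0.0495, 0.0327 and 0.0469, edgeR), and that of Pcx without Adn-Lpin1-/- HFD mouse 5 (0.0483).

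Among the gluconeogenic genes the largest change was in G6pc, the catalytic subunit of glucose-6-phosphatase (chr11:101367561-101377903), which releases glucose. On the LFD, G6pc was 468, 351, 493, 356 and 171 CPM in the WT mice and 584, 667, 667, 836 and 524 CPM in the Adn-Lpin1-/- mice. On the HFD, G6pc was 175, 239.8, 155, 299 and 522 CPM in the WT mice and 279.8, 200.4, 174, 348 and 115 CPM in the Adn-Lpin1-/- mice. The Adn-Lpin1-/- LFD mice stood above every mouse of the other 3 groups, and those 3 groups overlapped each other. In Adn-Lpin1-/- mice G6pc fell on the HFD to 0.341 times its LFD level, a log2 fold change of -1.55 ± 0.33 (SE; adjusted p = 0.0168, edgeR), and this held in all 10 other settings and without any 1 mouse. In WT mice the diet effect was -0.40 ± 0.32 (adjusted p = 0.585, edgeR). By genotype on the LFD it was 0.83 ± 0.32, which did not pass (adjusted p = 0.0892, edgeR) although the groups did not overlap. This LFD value passed in 3 of 10 other settings. These were edgeR on only the groups compared (0.0365), edgeR with the pools (0.0247) and voom with the pools (0.00255). It also passed in edgeR without WT HFD mouse 5 (0.0497). By genotype on the HFD the log2 fold change was -0.32 ± 0.32 (adjusted p = 0.524, edgeR). The genotype effect on the HFD minus that on the LFD, -1.15 ± 0.46, had an unadjusted p of 0.0201 and an adjusted p of 0.63.

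The hepatocyte markers overlapped between the Adn-Lpin1-/- groups in which Aldoa, Dlat and G6pc fell, with summed levels of 75314 to 100859 CPM on the LFD and 78637 to 105240 CPM on the HFD. Macrophage markers summed to 111 to 207 CPM and 137 to 303 CPM in the same groups. The part of these cells in the Aldoa, Dlat and G6pc results was not tested.

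Pck1, the cytosolic carboxykinase (chr2:173153048-173159273), opens gluconeogenesis from oxaloacetate. On the LFD, Pck1 was 3971, 3364, 5432, 5302 and 2244 CPM in the WT mice and 6100.2, 6332, 5074, 5849 and 3603 CPM in the Adn-Lpin1-/- mice. On the HFD, Pck1 was 2750.0, 1821, 1245, 3611 and 2603 CPM in the WT mice and 2418, 3007, 2974, 6459 and 2624 CPM in the Adn-Lpin1-/- mice. All groups overlapped, and mouse 4 of the Adn-Lpin1-/- HFD group, at 6459 CPM, was above every other mouse of the 20. The diet effect was -0.76 ± 0.30 in WT and -0.62 ± 0.30 in Adn-Lpin1-/- mice (SE; adjusted p = 0.216 and 0.305, edgeR). The genotype effect was 0.41 ± 0.30 on the LFD and 0.54 ± 0.30 on the HFD (adjusted p = 0.383 and 0.212). These values reached log2 0.76 in size without a call by edgeR. Voom with quality weights called the diet effect in WT mice (-0.96, adjusted p = 0.0464). With the pools added, voom called it in WT mice (-0.86, 0.00507) and in Adn-Lpin1-/- mice (-0.78, 0.015). With a mean coefficient of variation of 34.8% within groups, Pck1 was more variable than 94.0% of all genes tested.

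**Figure D4:**
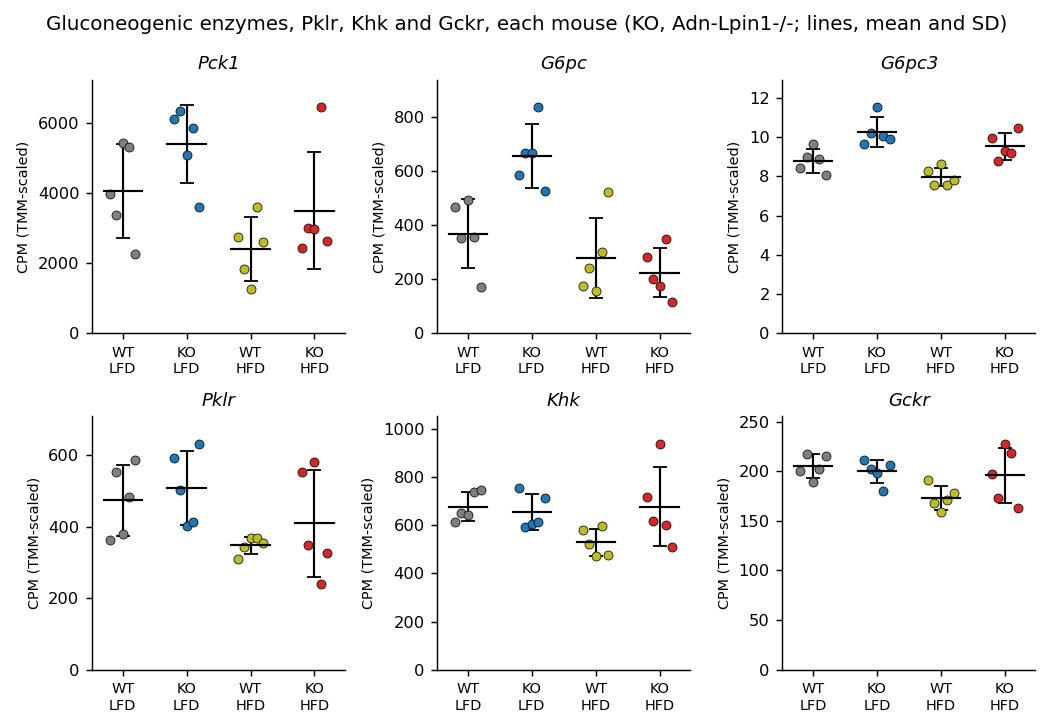
CPM on TMM-scaled library sizes of 6 genes in each of the 20 mice (points), with the mean and SD of each group (lines); KO stands for Adn-Lpin1-/-. For G6pc the Adn-Lpin1-/- LFD mice, from 524 to 836 CPM, lie above all other mice, of which the highest is a WT HFD mouse at 522 CPM.

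The bases upstream of Pck1, G6pc and Dlat are shown because Pck1 and G6pc varied together across mice and because G6pc and Dlat gave the steadiest diet calls. The same motifs and capitals apply as for Slc2a1. The sequence of Pck1 holds the cAMP response element core, read as CGTCA, 90 bases before the RefSeq start, and a GC box 16 bases before it lies within the annotated gene and is not shown. Dlat holds the same letters 201 bases and a GC box 239 bases before its start. In the 250 bases before the G6pc start no exact match to the letters of the 4 motifs was found. Variants of these letters were not searched. Of these bases, 95 lie outside the annotated gene and are shown.
Pck1, chr2:173152823-173153047 (+ strand): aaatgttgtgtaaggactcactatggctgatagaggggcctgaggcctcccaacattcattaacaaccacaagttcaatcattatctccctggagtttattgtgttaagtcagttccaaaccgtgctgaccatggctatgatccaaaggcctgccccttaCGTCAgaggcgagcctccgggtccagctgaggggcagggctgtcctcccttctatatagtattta
G6pc, chr11:101367466-101367560 (+ strand): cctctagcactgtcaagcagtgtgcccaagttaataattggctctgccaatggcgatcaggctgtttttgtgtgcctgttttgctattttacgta
Dlat, chr9:50659781-50660030 (- strand): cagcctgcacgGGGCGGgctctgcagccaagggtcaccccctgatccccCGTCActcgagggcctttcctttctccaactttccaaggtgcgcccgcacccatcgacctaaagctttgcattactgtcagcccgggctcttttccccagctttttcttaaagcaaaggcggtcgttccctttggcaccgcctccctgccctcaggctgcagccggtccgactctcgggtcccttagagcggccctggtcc

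RefSeq promoter windows were found for 32 of the 33 genes, 48 windows in all. The cAMP response element core was in 20.8% of these windows and in 17.8% of all 32851 windows. The E-box was in 12.5% and 6.02%, the GC box in 56.2% and 32.7%, and the forkhead core in none of the 48 and in 3.17% of all. In the Khk window an E-box and a cAMP response element core overlap. A match to letters is not a measure of binding, and the lack of an exact match does not show that a site is absent.

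G6pc3, the glucose-6-phosphatase subunit found in most tissues (chr11:102189620-102194081), was higher in Adn-Lpin1-/- mice on the HFD. On the LFD, G6pc3 was 8.42, 9.0, 9.68, 8.89 and 8.06 CPM in the WT mice and 9.64, 10.2, 11.6, 10.1 and 9.90 CPM in the Adn-Lpin1-/- mice. On the HFD, G6pc3 was 8.30, 7.55, 8.65, 7.58 and 7.81 CPM in the WT mice and 9.99, 8.77, 9.31, 9.18 and 10.5 CPM in the Adn-Lpin1-/- mice. On the HFD all 5 Adn-Lpin1-/- mice were above all 5 WT mice, and on the LFD 4 of the 5 were above all WT mice. The log2 fold change was 0.26 ± 0.07 on the HFD (SE; adjusted p = 0.0216, edgeR) and 0.22 ± 0.08 on the LFD (adjusted p = 0.0513). With the GC trend removed the HFD value was 0.16 (adjusted p = 0.155, edgeR). The HFD call was also lost without WT HFD mouse 2, 4 or 5 or Adn-Lpin1-/- HFD mouse 5, at adjusted p values of 0.0528, 0.0556, 0.0523 and 0.0518. The LFD value passed in 5 of 10 other settings, among them DESeq2's Wald test (adjusted p = 0.0335) and voom with quality weights (0.0405). It also passed without WT LFD mouse 3, Adn-Lpin1-/- LFD mouse 1 or Adn-Lpin1-/- HFD mouse 2 or 5, at 0.0485 to 0.0495 (edgeR).

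The remaining gluconeogenic genes gave no call. Slc37a4, the transporter that brings glucose 6-phosphate to G6pc, had a log2 fold change of -0.30 ± 0.10 by genotype on the LFD (SE; adjusted p = 0.0524, edgeR) and of -0.24 ± 0.10 on the HFD (adjusted p = 0.108). The LFD value passed the threshold in 6 of 10 other settings and without WT LFD mouse 5, Adn-Lpin1-/- LFD mouse 1, WT HFD mouse 5 or Adn-Lpin1-/- HFD mouse 4 (adjusted p = 0.0484, 0.0132, 0.0448 and 0.0343, edgeR), and the HFD value passed without Adn-Lpin1-/- HFD mouse 4 (0.0253) and with the GC trend removed (0.0401). Fbp1 had group means of 1048 to 1130 CPM and no log2 fold change beyond 0.11 in size in the 4 comparisons. Pck2, the mitochondrial carboxykinase, had means of 4.19 to 5.49 CPM. Gcgr, the glucagon receptor, ranged from 295 to 370 CPM over the 20 mice, a spread within groups smaller than that of Pck1.

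Within groups, some of these genes varied together from mouse to mouse. After each group's mean log2 CPM was subtracted, 5 pairs chosen by function were compared over the 20 mice, with permutation within groups and adjustment over the 5 pairs. Pck1 and G6pc had a Pearson r of 0.64 (permutation p = 0.0129, adjusted p = 0.029) and a Spearman rho of 0.59 (permutation p = 0.0172). Pck1 and Pklr ran in opposite directions, with r = -0.53 (permutation p = 0.0174, adjusted p = 0.029) and rho = -0.47 (permutation p = 0.0454, adjusted p = 0.0757). Without WT HFD mouse 3 and Adn-Lpin1-/- HFD mouse 4, the mice farthest from the median of Pck1, these values were 0.46 (permutation p = 0.112) and -0.36 (permutation p = 0.149), neither past the threshold. Leaving out WT LFD mouse 5 alone also took the first below it (0.54), and leaving out WT LFD mouse 5 or Adn-Lpin1-/- HFD mouse 1 or 4 the second (-0.48, -0.49 and -0.34).

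Pklr and Khk, both genes that respond to carbohydrate, had r = 0.69 (permutation p = 0.0106, adjusted p = 0.029) and rho = 0.61 (permutation p = 0.00671). Without Adn-Lpin1-/- HFD mice 3 and 4, the farthest from the median of Pklr, r was 0.64 (permutation p = 0.0167). The pyruvate carrier subunits Mpc1 and Mpc2 had r = 0.31 (permutation p = 0.223, rho = 0.29), and Pdha1 and Pdhb r = -0.23 (permutation p = 0.426, rho = -0.10). All genes of a mouse share its library, its depth and the state of that animal.

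**Figure D5:**
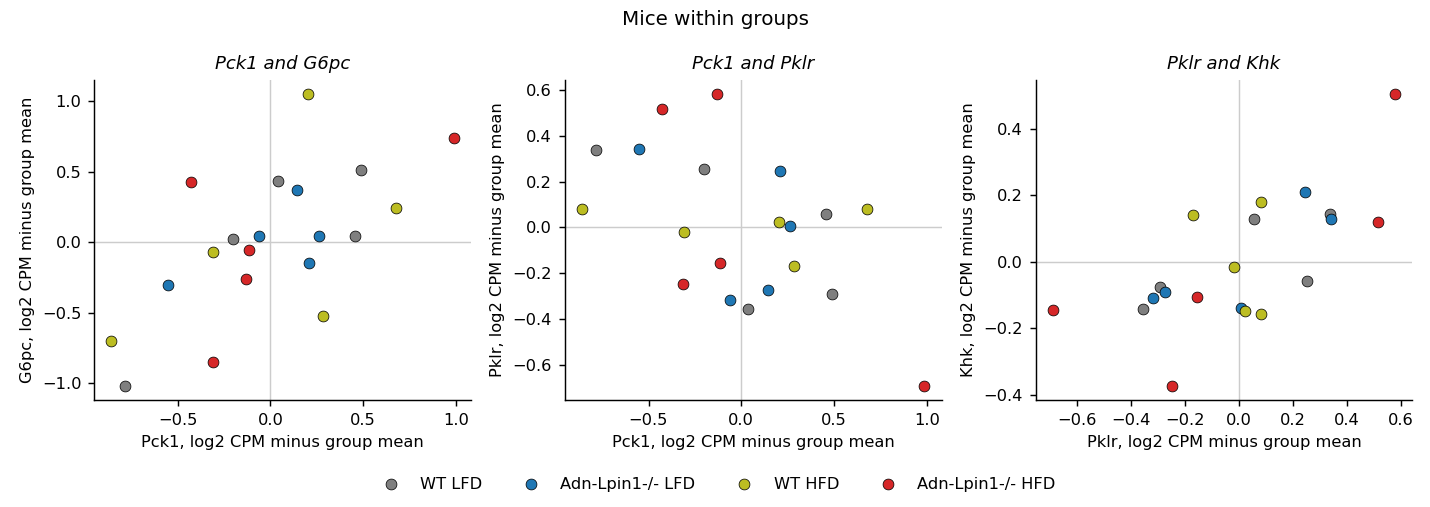
Log2 CPM of 3 pairs of genes in each of the 20 mice after subtraction of the group mean, coloured by group. Pearson r is 0.64 for Pck1 and G6pc, -0.53 for Pck1 and Pklr, and 0.69 for Pklr and Khk, and Adn-Lpin1-/- HFD mouse 4 lies at the far right of the first and second panels.

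Spread within groups differed widely among the 33 genes. The mean coefficient of variation within groups had a median of 11.4% over the 33, against 12.5% over all genes tested. G6pc (36.6%) and Pfkfb3 (41.4%) were more variable than 95.1% and 96.8% of all genes, while Tpi1 (4.09%) was more variable than 0.789% of them. Pooled RNA fell within the RPKM range of the 5 single mice of its group for 32, 33, 32 and 31 of the 33 genes in WT LFD, Adn-Lpin1-/- LFD, WT HFD and Adn-Lpin1-/- HFD.

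Other genes of the pathway were taken from 5 lists with 75 genes in all, of which 61 were tested. By genotype the median log2 fold change of the 61 was 0.04 on LFD and 0.08 on HFD. By genotype 8 of the 61 (13.1%) were called on the LFD, 3 higher and 5 lower in Adn-Lpin1-/- mice, and 13 (21.3%) on the HFD, 8 higher and 5 lower. Over all genes the shares were 14.4% and 18.6%, so both counts were near the background. By diet 1 was called in WT mice, where 1.10% of all genes were, Akr1b3, aldose reductase, with a log2 fold change of -0.52 ± 0.12 (SE; adjusted p = 0.0336, edgeR). In Adn-Lpin1-/- mice edgeR called 0 by diet, with 15 at an unadjusted p under 0.05, beside 16.1% of all genes. DESeq2's Wald test and voom with quality weights each called 2 of the 61, and 4.42% and 2.79% of all genes.

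The largest of these differences were in a kinase and a nuclear receptor. Pdk4, the fasting-induced kinase that switches off pyruvate dehydrogenase, was at 1.79 to 3.92 CPM in WT LFD mice and 5.45 to 25.0 CPM in Adn-Lpin1-/- LFD mice, without overlap. On the HFD it was 0.787 to 3.46 CPM in WT mice and 1.71 to 22.3 CPM in Adn-Lpin1-/- mice, and there the groups overlapped. The log2 fold changes were 2.07 ± 0.58 on the LFD and 1.91 ± 0.57 on the HFD (SE; adjusted p = 0.0211 and 0.0258, edgeR). Nr4a1, an immediate early nuclear receptor that can drive gluconeogenic genes, had log2 fold changes of 2.18 ± 0.48 and 2.04 ± 0.47 (adjusted p = 0.00547 and 0.00636, edgeR), from WT means of 1.16 and 1.28 CPM.

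Of 16 further isozymes and regulators of glycolysis and gluconeogenesis, 1 (6.25%) was called by genotype with the LFD and 5 (31.2%) with the HFD, all higher in Adn-Lpin1-/- mice, where 6.27% and 9.87% of all genes were called higher. Hk1, a hexokinase of most tissues, rose on both diets, by 0.69 ± 0.19 and 0.76 ± 0.19 on the log2 scale (SE; adjusted p = 0.0201 and 0.00918, edgeR). On the HFD Hk2 rose by 1.29 ± 0.35, Hk3 by 0.98 ± 0.30, the pyruvate kinase Pkm by 0.74 ± 0.21 and the muscle phosphofructokinase Pfkm by 0.18 ± 0.06. Hk3, Pkm and Pfkm, and Creb3l3 below, are named after their values were seen, to complete the genes called. Hk1 had a mean of 5.05 CPM and Hk2 of 2.71 CPM in Adn-Lpin1-/- HFD mice. These moved in the same comparison as Slc2a1 and the macrophage markers given above, and the part of those cells was not tested. Of 10 genes for transport and use of glucose and fructose, 2 were called lower on the LFD and 1 higher on the HFD, beside 8.11% and 9.87% of all genes. These were the urate transporter Slc2a9, which fell by 0.28 ± 0.09, Sord, sorbitol dehydrogenase, which fell by 0.30 ± 0.09, and Akr1b3, which rose by 0.44 ± 0.12. Of 9 further genes of pyruvate dehydrogenase and pyruvate transport, Pdk4 was the 1 called on each diet, beside the 14.4% and 18.6% of all genes.

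Of 16 transcription regulators of gluconeogenesis, 3 were called lower and 1 higher in Adn-Lpin1-/- mice on the LFD, and 5 lower and 1 higher on the HFD. Of all genes, 8.11% were called lower on the first diet and 8.78% on the second. Nr3c1, the glucocorticoid receptor, fell in Adn-Lpin1-/- mice on both diets, by 0.46 ± 0.07 on the LFD and 0.37 ± 0.07 on the HFD on the log2 scale, and in neither case did the mice overlap (adjusted p = 0.00048 and 0.0025, edgeR). Creb1, which binds cAMP response elements, had log2 fold changes of -0.44 ± 0.11 and -0.36 ± 0.11, and Cebpa, a hepatocyte regulator, of -0.31 ± 0.08 on each diet. Creb3l3 fell by 0.21 ± 0.07 and Hif1a by 0.31 ± 0.08 on the HFD. None of the 10 genes of the redox shuttles passed with edgeR in a genotype comparison, with 1 and 3 at an unadjusted p under 0.05 for the LFD and HFD.

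The methods of the study name voom with quality weights. With that test and the pool of each group counted as a further library, although it holds RNA of the same animals, 12 of the 33 genes differed by genotype with the LFD and 14 with the HFD, where 31.8% and 36.3% of all genes were called. By diet 12 were called in WT and 7 in Adn-Lpin1-/- mice, against 14.7% and 17.7% of all genes. A difference in genotype effect between diets was called for 1 of the 33, Slc2a1, against 1.45% of all genes.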

How the data were processed

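Liver RNA was sequenced from 20 single mice and 4 pools. Per the study's methods, the authors aligned reads with STAR 2.5.1a and counted them per gene with featureCounts 1.4.6-p5 on GRCm38, Ensembl release 76. The deposited values were raw read counts, with CPM and RPKM that the authors computed from them. Counts carried the tests and RPKM the levels between genes, and CPM values were recomputed from the counts. Whether counting used strand is not given in the sources used here, so reads of overlapping genes on opposite strands may not be separated.

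The 33 genes and all lists were chosen with earlier results of these data known. The tested genes exceeded 1 CPM in 4 or more single-mouse libraries, without 355 ribosomal RNA genes, which took 0.265% to 0.465% of counts. Counts were fitted with edgeR 4.0.16 (TMM, quasi-likelihood, 4 group means in 1 fit, R 4.3.3). The standard error is the log2 fold change over the root of F. Pools entered no main test, because their RNA comes from the same animals. Alternatives used DESeq2 1.42.0, limma 3.58.1 (voom with quality weights), pools, other limits on low counts, a replicate block, GC correction and omission of each mouse. Single-gene tests were exact permutation tests over mice (scipy 1.17.1), and correlations used 100000 permutations within groups. No 2 libraries held identical values. Values of every mouse are given for each of the 33 genes called in any comparison and, called or not, for Pck1, G6pc, Pklr, Gckr, Slc2a2, Slc2a1, Khk and Pfkfb3. Other pathway genes are named where called, at most 8 per comparison by adjusted p, with exceptions stated. Promoters are from RefSeq (GRCm38.p6).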

Additional observations from a re-analysis of the deposited data

Results flagged for a closer look

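A value far from the other 4 mice of its group, by Dixon's test, was found in 6 of 132 groups (33 genes in 4 groups), where chance alone gives about 5%. Pck1 was at 6459 CPM in Adn-Lpin1-/- HFD mouse 4. Pgk1 was at 199.3 CPM in Adn-Lpin1-/- LFD mouse 5, and Pck2 was lowest at 2.982 CPM in Adn-Lpin1-/- HFD mouse 2. In WT LFD mouse 5, Pdk1 was at 125.9 CPM and Pdha1 at 128.3 CPM. Pdhb was at 128.0 CPM in WT HFD mouse 5.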

How the results depend on the processing

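Values of 5 single-mouse libraries a group limit what could be called, and the cause of the changes below was not tested. The number of the 33 genes called by genotype on the LFD (1 as reported, lower) was 2 with DESeq2 size factors and 3 with DESeq2's Wald test. It was 5 with voom with quality weights, 12 with voom and the pools and 7 with edgeR and the pools. Without a limit on low counts it was 0, and in a fit of only the groups compared it was 2 (both higher). Over all genes these fits called, in order, 1875, 2248 and 2217 of 13052, 4177 and 3017 of 13136, 1386 of 28454 and 1571 of 13052. On the HFD (6 as reported, all higher) it was 14 with voom and the pools (10 higher and 4 lower), 10 with edgeR and the pools (8 and 2), 1 without a limit, 3 with edgeR's default limit, 2 with the GC trend removed (1 higher and 1 lower) and 1 with only the groups compared. Over all genes these HFD fits called, in order, 4763 and 3781 of 13136, 1859 of 28454, 2484 of 16870, and 2020 and 1982 of 13052. For diet in WT mice (0) the number of the 33 called was 1 with DESeq2's Wald test, 5 with voom, 12 with voom and the pools and 3 with edgeR and the pools. Those fits called 400 and 670 of 13052 genes and 1927 and 686 of 13136. For diet in Adn-Lpin1-/- mice (3) it was 7 of the 33 with voom and the pools, beside 2327 of 13136 genes. For the difference between the diets (0) it was 1 there, beside 190 of 13136 genes. Of the other pathway genes, voom with the pools called 22 on the LFD, 22 on the HFD, 11 for diet in WT and 18 for diet in Adn-Lpin1-/- mice, and edgeR with the pools 20 on the HFD and 6 for diet in Adn-Lpin1-/- mice. For diet in WT mice they were 0 without a limit and 0 with only the groups compared, and for diet in Adn-Lpin1-/- mice they were 1 with DESeq2 size factors, 2 with DESeq2's Wald test and 2 with voom. No result changed sign while called.

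Leaving out 1 mouse gave 0 to 4 of the 33 genes on the LFD, with 0 without WT LFD mouse 4 or Adn-Lpin1-/- LFD mouse 3, 2 without WT LFD mouse 3 or Adn-Lpin1-/- HFD mouse 2, 4 or 5, 3 without WT HFD mouse 5 and 4 without Adn-Lpin1-/- LFD mouse 1. On the HFD it gave 1 to 10, with 10 and 9 without Adn-Lpin1-/- HFD mouse 4 and 5, 3 without WT LFD mouse 4 or WT HFD mouse 1, 2 without WT HFD mouse 3 or Adn-Lpin1-/- HFD mouse 1, 2 or 3, and 1 without WT HFD mouse 2 or 5. The diet calls in Adn-Lpin1-/- mice were 2 to 3. Of the 12990 to 13044 genes tested, the fits without 1 mouse called 1208 to 1954 on the LFD and 1477 to 2750 on the HFD. For diet in Adn-Lpin1-/- mice they called 123 to 383. Of the other pathway genes, 4 to 9 were called on the LFD (5 without WT LFD mouse 3, 4 without Adn-Lpin1-/- LFD mouse 2), 8 to 16 on the HFD (8 without WT HFD mouse 2 or Adn-Lpin1-/- HFD mouse 2), 0 to 1 for diet in WT mice (1 only without WT LFD mouse 5, WT HFD mouse 5 or a mouse of an Adn-Lpin1-/- group) and 0 to 2 for diet in Adn-Lpin1-/- mice (2 without WT LFD mouse 5 or WT HFD mouse 5).

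Over 30 pairs of same-numbered mice the correlation of deviations had a median of -0.01. It ran from -0.41 to 0.27 and exceeded 0.1 in 6. Mice with different numbers were not compared, so whether replicate numbers pair the mice was not tested. With the replicate block 2 of the 33 genes were called on the LFD, 3 on the HFD, 0 for diet in WT and 3 in Adn-Lpin1-/- mice, and 0 for the difference, and of the other pathway genes 7, 11, 1 and 1 in the first 4 comparisons. Of all 13052 genes, the block fit called 1532 on the LFD, 2012 on the HFD, 90 and 214 for diet in WT and Adn-Lpin1-/- mice, and 0 for the difference. Without the 2 farthest mice the correlation was 0.46 for Pck1 and G6pc, -0.36 for Pck1 and Pklr, and 0.52 for Mpc1 and Mpc2. Without 1 mouse it lay between 0.54 and 0.72, between -0.60 and -0.34, and between 0.17 and 0.48, and for Pck1 and G6pc it no longer passed without WT LFD mouse 5 (0.54), nor for Pck1 and Pklr without WT LFD mouse 5 (-0.48) or Adn-Lpin1-/- HFD mouse 1 (-0.49) or 4 (-0.34).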
